A study of Homo sapiens with 12 samples.

Results

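In human stem cell-derived liver cells, 10 genes of the transforming growth factor beta (TGF-beta) pathway were followed: the ligand genes TGFB1, TGFB2, TGFB3 and INHBA, the receptor genes TGFBR1, TGFBR2 and TGFBR3, the target gene TGFBI, and the feedback inhibitor genes SMAD7 and SKIL. They were taken by Entrez gene number, and all 10 were found among the 23922 genes of the deposited transcript tables and passed the filter on low counts that left 18101 genes to test. The source was H9, an established line of human embryonic stem cells, taken toward the hepatocyte fate, and RNA of the whole culture was sequenced in 12 libraries. These form 6 groups of 2: day 7 cells, labelled hepatoblasts, and day 19 cells, labelled hepatocytes, each after 0.1% DMSO as the control, 30 nM T3 (triiodothyronine) or 30 nM T4 (thyroxine). T4 carries an additional iodine atom and is the form from which deiodinases make T3. Both days share the H9 background, which is 1 line. Whether replicate libraries stem from separate cultures is not in the labels, so p-values reflect the spread between the libraries at hand, which may be technical. The labels also do not say when hormone was added, for how long cells were exposed, or which vehicle the hormone-treated cells received.

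TGF-beta ligands are secreted in a latent form and, once released, bind the type II receptor encoded by TGFBR2, which recruits and phosphorylates the type I receptor encoded by TGFBR1. The type I receptor phosphorylates SMAD2 and SMAD3, which enter the nucleus with SMAD4 and change transcription. TGFBR3 encodes betaglycan, a coreceptor that presents ligand, above all TGF-beta 2, and that also binds inhibin. INHBA encodes the subunit of activin A, a related ligand that uses its own receptors but the same SMADs and that is used to drive stem cells into definitive endoderm. SMAD7 blocks the type I receptor, and SKIL (SnoN) represses SMAD-dependent transcription. TGFBI encodes an extracellular matrix protein first cloned as a TGF-beta-induced transcript. In liver the pathway is known for restraining hepatocyte growth, for patterning hepatoblasts and bile ducts, and for driving stellate cells to make matrix.

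Levels are given as CPM (counts scaled to library size, after TMM), which compare 1 gene between libraries, and as the authors' FPKM, which are per transcript length and compare genes with each other. A gene was called at an adjusted p of at most 0.05 (edgeR quasi-likelihood test, Benjamini-Hochberg over all 18101 genes), and "rose" and "fell" are used only of called genes. A value followed by its adjusted p and SE is a log2 fold change from that fit. Total counts were 18363549 to 19306181 per library. Every group's libraries differed by more than sampling noise, with a chi-square per gene of 1.585 to 2.10 at day 7 and 4.954 to 8.618 at day 19, so no library was a copy of another. The 8 hepatocyte markers were all detected, with a summed level of 5151 to 5181 CPM in day 7 DMSO and 63690.3 to 67332 CPM in day 19 DMSO. AFP, the fetal counterpart of albumin, supplied 32931 and 35468 CPM of the latter, while ALB itself, the albumin gene, was at 17.8 and 20.8 CPM. Between the days in DMSO 7 of the 8 rose and 1 fell, where 37.6% of all genes rose and 34.9% fell. The marker that fell was HNF4A, with a mean of 342 CPM at day 7 and 233 CPM at day 19. In day 19 cells given hormone the hepatocyte sum was 2872 to 3849 CPM after T3 and 7389 to 8294 CPM after T4. It was below day 7 DMSO for T3 and above it for T4, and all 8 markers fell with either hormone at day 19. Markers of mesenchymal and stellate cells summed to 314 to 321 CPM in day 7 DMSO and 6223 to 6486 CPM in day 19 DMSO. In such bulk samples, fewer cells of a type and less RNA per cell cannot be told apart.

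The members' RefSeq positions on GRCh38 are TGFB1 at chr19:41330323-41353922, TGFB2 at chr1:218345336-218444619, TGFB3 at chr14:75958097-75983011, INHBA at chr7:41685114-41705406, TGFBR1 at chr9:99103647-99154192, TGFBR2 at chr3:30606356-30694142, TGFBR3 at chr1:91680343-91906002, TGFBI at chr5:136028988-136063818, SMAD7 at chr18:48919853-48950965 and SKIL at chr3:170357715-170396849. The strand of counting is not given in the sources used here, so reads of overlapping genes could not be separated with certainty. In GENCODE 29, exons of TGFB1 overlap those of HNRNPUL1 and exons of TGFB3 overlap those of TGFB3-AS1, both on the opposite strand. TGFB2 shares exon sequence with TGFB2-OT1 on its own strand, and the antisense gene TGFB2-AS1 lies across its RefSeq start. For TGFBR1, TGFBR2, TGFBR3 and INHBA, whose antisense neighbour is INHBA-AS1, other genes overlap introns or ends only, and TGFBI, SMAD7 and SKIL overlap no annotated gene.

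Upstream sequence is shown for 4 members, chosen after their values were seen: TGFB2 and TGFBR2, which rose with either hormone at day 19, and TGFBI and INHBA, which fell. Each run is 5′ to 3′ on the gene's strand, from RefSeq GRCh38.p14, and ends at the start site or, for TGFBI and INHBA, before an exon of the gene annotated upstream of it. The INHBA start used lies inside the annotated span of the gene, whose longest form begins farther upstream. Capitals mark CAGACA, a SMAD-binding element with its flank.
TGFB2 (chr1:218345086-218345335, plus strand): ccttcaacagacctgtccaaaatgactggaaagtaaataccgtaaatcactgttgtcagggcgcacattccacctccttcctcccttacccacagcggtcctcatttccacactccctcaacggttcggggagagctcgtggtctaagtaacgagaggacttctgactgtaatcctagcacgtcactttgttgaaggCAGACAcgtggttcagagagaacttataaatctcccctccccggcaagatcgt
TGFBR2 (chr3:30606106-30606355, plus strand): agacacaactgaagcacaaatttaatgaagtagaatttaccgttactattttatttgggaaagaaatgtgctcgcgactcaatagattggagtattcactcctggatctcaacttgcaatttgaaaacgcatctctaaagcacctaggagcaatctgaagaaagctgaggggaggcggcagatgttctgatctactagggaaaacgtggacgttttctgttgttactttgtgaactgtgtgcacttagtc
TGFBI (chr5:136028738-136028894, plus strand): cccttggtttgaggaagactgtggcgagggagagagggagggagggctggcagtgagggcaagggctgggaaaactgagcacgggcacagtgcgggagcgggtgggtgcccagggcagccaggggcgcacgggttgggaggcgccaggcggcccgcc
INHBA (chr7:41703109-41703340, minus strand): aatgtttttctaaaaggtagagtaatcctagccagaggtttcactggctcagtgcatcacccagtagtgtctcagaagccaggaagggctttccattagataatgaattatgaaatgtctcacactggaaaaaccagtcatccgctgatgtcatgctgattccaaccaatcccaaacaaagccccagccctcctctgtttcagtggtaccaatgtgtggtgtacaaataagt

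All 10 members had entries in the RefSeq promoter table, 21 windows in all, each from 250 bases before a start site to 50 after it. Letter patterns were searched on both strands of these windows. CAGACA was found at bases 198 to 203 of the TGFB2 window, which is the match in capitals above, at bases 278 to 283 of the INHBA window, past the start site, and in alternative windows of TGFBR1. Over all genes only 1 window per gene was searched, and CAGACA was present in that window of 16.8% of 27305 genes. The members were searched in all their windows, so they and the shares over all genes are not on the same footing. The AP-1 element TGANTCA was found in 1 member window, the downstream of the TGFBR2 starts, and in 7.76% of genes. The nuclear receptor core element AGGTCA was found in alternative windows of SMAD7 and TGFBR1, and in 13.9% of genes. Neither the SMAD palindrome GTCTAGAC (0.201% of genes) nor the direct repeat of AGGTCA with a spacer of 4 bases that thyroid hormone receptors favour (0.0183% of genes) was found in any of the 21 windows. CAGACA and the palindrome share the letters AGAC, the direct repeat holds the core element, and a match describes letters only.

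Per transcript length, TGFB1 was the leading ligand gene in all 12 libraries, and SMAD7 the leading member at day 7. In day 7 DMSO, SMAD7 was at 22.5 and 21.7 FPKM and TGFB1 at 14.6 and 14.3 FPKM in the 2 libraries. TGFBR1 followed at 12.5 and 12.1 FPKM, SKIL at 7.24 and 6.96 FPKM and TGFBI at 6.61 and 6.25 FPKM. The lowest were TGFB2 at 0.94 and 0.78, TGFB3 at 0.29 and 0.31 and INHBA at 0.17 and 0.19 FPKM. INHBA and TGFB3 thus rested on few reads at day 7, with 19 and 22 and 19 and 20 counts in the DMSO libraries. By day 19 in DMSO the order had changed: TGFBI was first at 449 and 407 FPKM, far above TGFB1 at 40.8 and 44.4 FPKM, and INHBA, at 6.54 and 6.47 FPKM, lay beside TGFBR2 at 7.60 and 5.89 FPKM, with libraries of the 2 genes that overlapped.

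Between day 7 and day 19 in DMSO all 10 members rose. Across all tested genes 37.6% rose and 34.9% fell in this comparison, and the members' median log2 fold change was 1.99 against -0.0013 over all genes. TGFBI went from 16.5 and 15.6 CPM to 1478 and 1341 CPM, and INHBA from 0.915 and 1.06 CPM to 47.2 and 46.8 CPM. For both genes every day 19 library was far above every day 7 library, by 87.8-fold for TGFBI with a log2 fold change of 6.46 (adjusted p = 3.72e-16, SE 0.08) and by 47.3-fold for INHBA with 5.56 (adjusted p = 9.03e-14, SE 0.14). The 3 TGF-beta ligand genes rose by 5.48-fold (TGFB2), 4.82-fold (TGFB3) and 3.89-fold (TGFB1). Among the receptors TGFBR2 rose 4.05-fold and TGFBR3 1.93-fold, while TGFBR1 rose little, with a log2 fold change of 0.21 (adjusted p = 0.0188, 95% interval 0.05 to 0.36). The inhibitor genes had log2 fold changes of 0.91 (adjusted p = 3.25e-08, SE 0.07) for SKIL and 0.30 (adjusted p = 0.000423, SE 0.06) for SMAD7. The small changes of TGFBR1 and SMAD7 depended on the scale. On log2(FPKM + 0.1) in limma they were -0.20 (adjusted p = 0.0374) and -0.14 (adjusted p = 0.0607), where the median of all genes shifted by -0.37. Relative to that shift TGFBR1 stood at 0.18 and SMAD7 at 0.23. TGFBR1 was also not called without replicate 2 of day 7 DMSO (adjusted p = 0.116) or replicate 1 of day 19 DMSO (log2 fold change 0.08, adjusted p = 0.325).

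**Figure D1:**
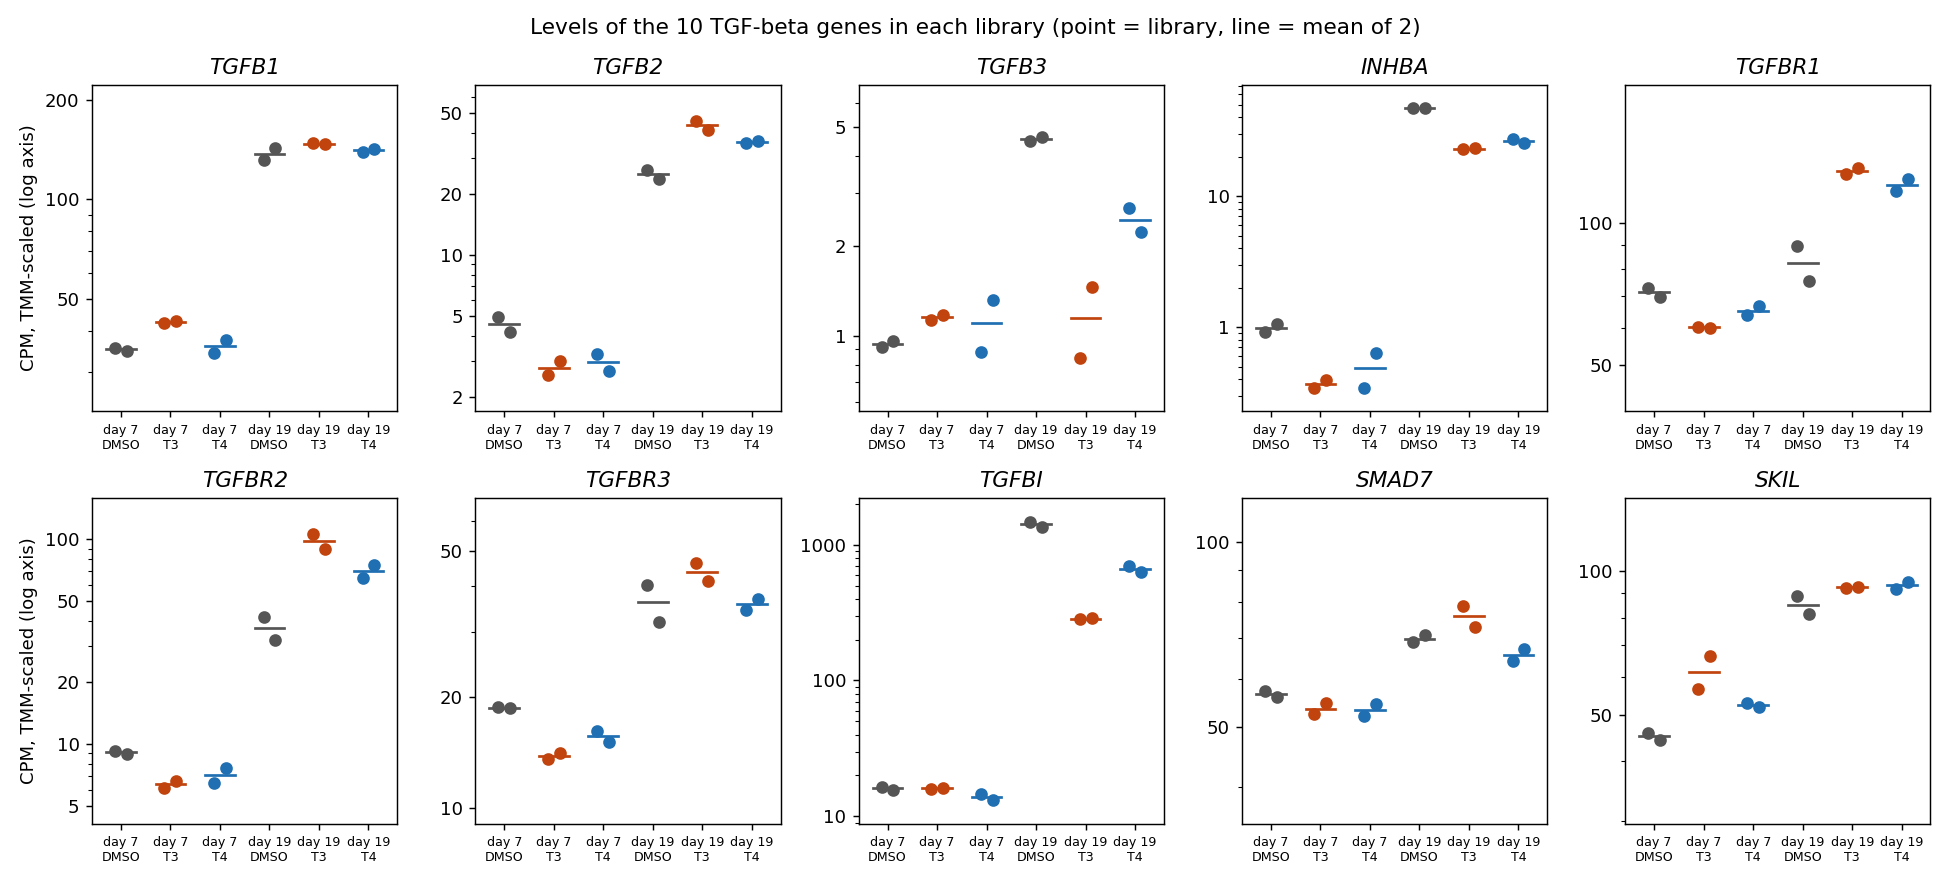
Level of each of the 10 genes in CPM (TMM-scaled, log axis) by group, with a point for each library and a line for the mean of 2. TGFBI and INHBA rise most from day 7 to day 19 in DMSO, and at day 19 the hormone-treated libraries lie below DMSO for TGFBI, INHBA and TGFB3 and above it for TGFB2, TGFBR1 and TGFBR2.

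At day 19, T3 raised 4 members and lowered 3, and T4 raised 3 and lowered 3. The receptor genes TGFBR1 and TGFBR2 and the ligand gene TGFB2 rose with either hormone, whereas TGFBI, TGFB3 and INHBA fell with either. In the T3 comparison 25.1% of all tested genes rose and 27.3% fell. In the T4 comparison 21.0% rose and 21.9% fell, so calls of a single gene in these comparisons were common. Both comparisons use the same 2 DMSO libraries, so their values are set side by side and are not independent of each other.

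Among the ligands at day 19, TGFB2 was at 26.3 and 23.8 CPM in DMSO, 46.0 and 41.2 CPM after T3 and 35.7 and 36.4 CPM after T4. The 3 groups did not overlap, with T3 highest and DMSO lowest. TGFB2 rose by 1.74-fold with T3, a log2 fold change of 0.80 (adjusted p = 3.91e-06, SE 0.09), and by 1.44-fold with T4, 0.52 (adjusted p = 0.00035, SE 0.09). TGFB3, the least abundant of the ligand genes, moved the other way, from 4.48 and 4.62 CPM in DMSO to 0.838 and 1.45 CPM after T3 and 2.68 and 2.22 CPM after T4. These are small counts, 74 and 76 in DMSO, 14 and 25 after T3 and 47 and 39 after T4, and the 3 groups did not overlap. TGFB3 fell by 3.94-fold with T3, -1.98 (adjusted p = 2.34e-05, SE 0.27), and by 1.85-fold with T4, -0.89 (adjusted p = 0.00819, SE 0.24). The T4 call on TGFB3 was lost without replicate 2 of T4 (adjusted p = 0.0629) and with the DESeq2 test (adjusted p = 0.0743). After T3 its level was no longer apart from that of day 7, where the libraries of all groups lay between 0.88 and 1.32 CPM.

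TGFB1 had the smallest fold changes of the ligand genes at day 19, with 131 and 143 CPM in DMSO, 148 and 147 CPM after T3 and 139 and 142 CPM after T4. The T4 libraries lay within the range of the DMSO libraries and the T3 libraries just above it. Neither comparison was called, with log2 fold changes of 0.10 (adjusted p = 0.147, 95% interval -0.02 to 0.23) for T3 and 0.04 (adjusted p = 0.654, 95% interval -0.09 to 0.16) for T4. On log2(FPKM + 0.1) in limma both were called, at 0.18 and 0.17, where the median gene moved by 0.07 and 0.12. INHBA, the activin subunit, was at 47.2 and 46.8 CPM in DMSO, 22.8 and 23.5 CPM after T3 and 27.4 and 25.4 CPM after T4. Both hormone groups lay well below DMSO, and T4 lay above T3. INHBA fell by 2.03-fold with T3, -1.02 (adjusted p = 1.65e-07, SE 0.09), and by 1.78-fold with T4, -0.83 (adjusted p = 2.13e-06, SE 0.09).

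Among the receptors at day 19 TGFBR2 responded most. It was at 41.7 and 32.3 CPM in DMSO, 106 and 89.1 CPM after T3 and 64.9 and 75.0 CPM after T4. No group overlapped another, although the 2 libraries of each group were some way apart. TGFBR2 rose by 2.64-fold with T3, 1.40 (adjusted p = 7.86e-08, SE 0.11), and by 1.89-fold with T4, 0.92 (adjusted p = 1.24e-05, SE 0.11). TGFBR1, its signalling partner, was at 89.3 and 75.5 CPM in DMSO, 127 and 131 CPM after T3 and 117 and 124 CPM after T4. Both hormone groups lay above DMSO, and TGFBR1 rose by 1.56-fold with T3, 0.64 (adjusted p = 2.56e-06, SE 0.07), and by 1.46-fold with T4, 0.55 (adjusted p = 2.08e-05, SE 0.07). The coreceptor gene TGFBR3 was at 40.5 and 32.1 CPM in DMSO, 46.4 and 41.3 CPM after T3 and 34.4 and 37.1 CPM after T4. The T4 libraries lay inside the range of DMSO, and the lower T3 library lay just above it. Its T3 effect of 0.27 (adjusted p = 0.0274, SE 0.10) was called but rested on single libraries: it was 0.11 without replicate 2 of DMSO (adjusted p = 0.329) and 0.19 without replicate 1 of T3 (adjusted p = 0.192). With the day 19 libraries alone its adjusted p was 0.0656.

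TGFBI, the target gene, showed the largest hormone response of the members at day 19. It was at 1478 and 1341 CPM in DMSO, 282 and 288 CPM after T3 and 696 and 634 CPM after T4. The 3 groups were widely apart, with T4 between DMSO and T3, and even the T3 libraries remained far above the 16.5 and 15.6 CPM of day 7 DMSO. TGFBI fell by 4.95-fold with T3, -2.31 (adjusted p = 2.14e-12, SE 0.07), and by 2.12-fold with T4, -1.08 (adjusted p = 5.07e-09, SE 0.06). The inhibitor genes were not called. SMAD7 was at 68.8 and 70.6 CPM in DMSO, 78.8 and 72.8 CPM after T3 and 64.2 and 67.0 CPM after T4, so T3 lay above and T4 below DMSO by a few CPM. Neither comparison of SMAD7 was called, at 0.12 (adjusted p = 0.108, 95% interval -0.01 to 0.25) for T3 and -0.09 (adjusted p = 0.27, 95% interval -0.22 to 0.04) for T4. The T3 comparison was called with DESeq2 size factors (adjusted p = 0.0331), without replicate 2 of T3 (adjusted p = 0.0426) and on FPKM, and the T4 value was 0.10 on log2(FPKM + 0.1). SKIL was at 88.6 and 81.5 CPM in DMSO, 92.4 and 92.7 CPM after T3 and 91.8 and 95.03 CPM after T4, uncalled at 0.12 (adjusted p = 0.167, 95% interval -0.03 to 0.27) for T3 and 0.14 (adjusted p = 0.14, 95% interval -0.02 to 0.29) for T4. On log2(FPKM + 0.1) the T4 value of SKIL was 0.28 (limma adjusted p = 0.0166).

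Marker lists of other cell types did not all move in the same direction at day 19. The summed mesenchymal and stellate markers were 6223 to 6486 CPM in DMSO, 2231 to 3068 CPM after T3 and 3186 to 3613 CPM after T4. Of the 8 genes 7 fell with T3 and 6 with T4, while 1 rose with either. Intestinal epithelium markers summed to 1962 to 2126, 385 to 465 and 755 to 978 CPM in the same order, and all 5 fell with either hormone. Endothelial markers summed to 106 to 118, 120.0 to 120.4 and 107 to 129.9 CPM, with 4 of 6 lower and 1 higher with T3. Blood, macrophage and platelet markers summed to 131 to 132, 179 to 206 and 154 to 159 CPM. Only 3 of these 7 markers were tested, and 1 rose and 1 fell with either hormone. Of those too low to test, SPI1 was at 0 in both DMSO libraries and PF4 in both T3 libraries. Pluripotency markers summed to 144 to 152, 195 to 214 and 194 to 199 CPM, and 3 of 6 rose with either hormone. Cell cycle markers summed to 195 to 217, 201 to 213 and 225 to 232 CPM. Of these 6, T3 raised 3 and lowered 3, and T4 raised 3 and lowered 1. The part of these shifts in the values of TGFBI, INHBA, TGFB3 and the receptors was not tested.

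**Figure D2:**
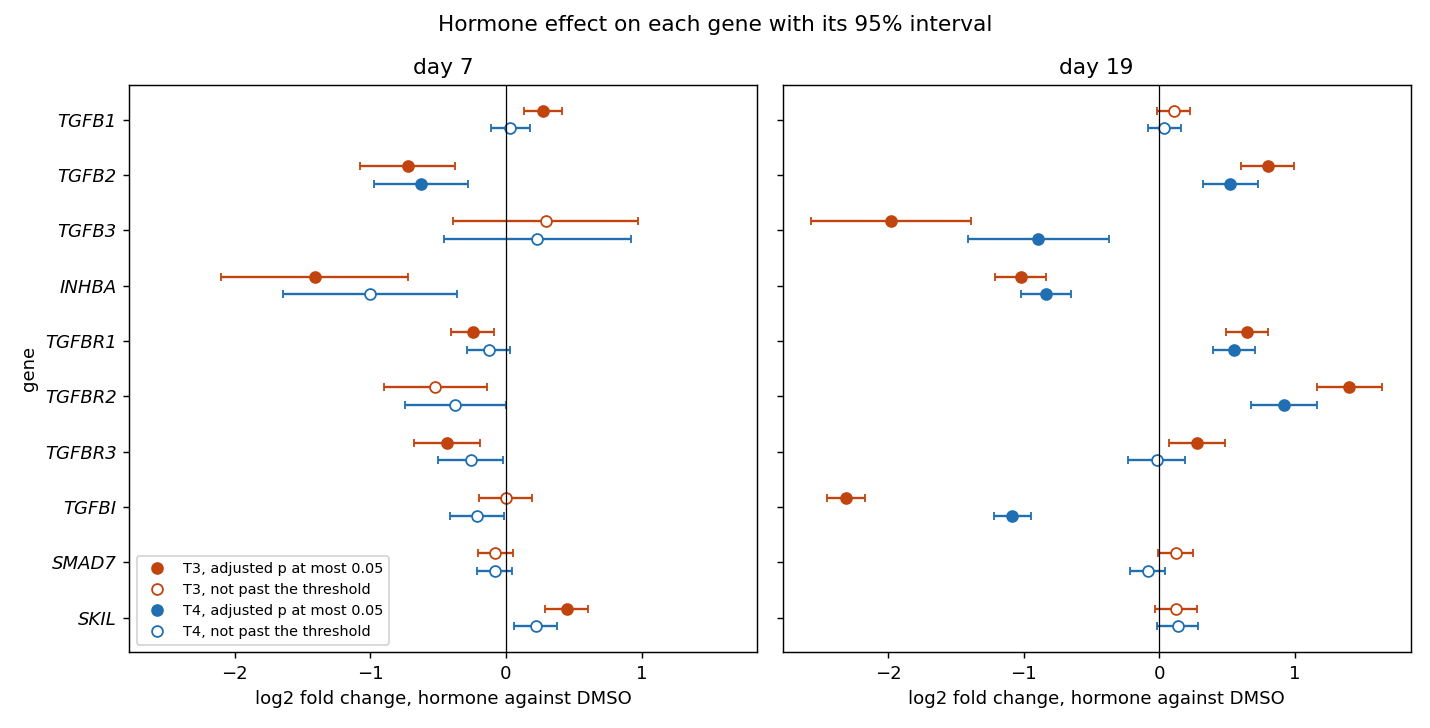
Log2 fold change of each gene after T3 (red) or T4 (blue) against DMSO at day 7 and day 19, with its 95% interval, filled where the adjusted p is at most 0.05. TGFB2 and the 3 receptor genes lie left of 0 with T3 at day 7 and right of 0 at day 19.

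At day 7 the picture differed. T3 raised 2 members, TGFB1 and SKIL, and lowered 4, TGFB2, INHBA, TGFBR1 and TGFBR3, where 9.43% of all tested genes rose and 6.54% fell. T4 raised none and lowered 1, TGFB2, where 3.90% of genes rose and 2.52% fell. TGFB2 was at 4.96 and 4.18 CPM in DMSO, 2.55 and 2.98 CPM after T3 and 3.24 and 2.68 CPM after T4. Both hormone groups lay below DMSO and overlapped each other, with log2 fold changes of -0.72 (adjusted p = 0.00796, SE 0.16) for T3 and -0.63 (adjusted p = 0.0324, SE 0.16) for T4. INHBA was at 0.915 and 1.06 CPM in DMSO, 0.343 and 0.391 CPM after T3 and 0.344 and 0.634 CPM after T4, on 7 to 22 counts a library. DMSO lay above every hormone library, and the effects were -1.41 (adjusted p = 0.00826, SE 0.32) for T3 and -1.001 (adjusted p = 0.0874, SE 0.30) for T4, which was not called. TGFB1 was at 35.6 and 34.9 CPM in DMSO, 42.3 and 42.9 CPM after T3 and 34.4 and 37.6 CPM after T4, so both T3 libraries lay above DMSO and the T4 libraries on either side of it. TGFB1 rose with T3, at 0.27 (adjusted p = 0.0117, SE 0.07), and was uncalled with T4, at 0.03 (adjusted p = 0.854, SE 0.07). TGFB3 was not called at day 7, at 0.29 (adjusted p = 0.602, 95% interval -0.39 to 0.98) for T3 and 0.23 (adjusted p = 0.759, 95% interval -0.46 to 0.92) for T4, wide intervals on 18 to 27 counts a library.

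Of the 3 receptor genes at day 7, TGFBR1 and TGFBR3 fell with T3, and none was called with T4. TGFBR3 was at 18.9 and 18.7 CPM in DMSO, 13.6 and 14.1 CPM after T3 and 16.2 and 15.1 CPM after T4. TGFBR1 was at 72.8 and 69.9 CPM in DMSO, 60.3 and 60.1 CPM after T3 and 63.8 and 66.8 CPM after T4. In both genes T3 was lowest, T4 lay between and no group overlapped another. TGFBR3 fell with T3 by 1.35-fold, -0.44 (adjusted p = 0.0169, SE 0.11), and TGFBR1 by 1.19-fold, -0.25 (adjusted p = 0.0351, SE 0.07). TGFBR2, at 9.29 and 8.99 CPM in DMSO, 6.13 and 6.60 CPM after T3 and 6.49 and 7.61 CPM after T4, was also lower in every hormone library, but its values of -0.52 (adjusted p = 0.0602, SE 0.18) and -0.38 (adjusted p = 0.234, SE 0.17) were not called. Among targets and inhibitors SKIL rose with T3, from 45.8 and 44.4 CPM to 56.7 and 66.4 CPM, at 0.45 (adjusted p = 0.0009, SE 0.07), and stood at 53.0 and 52.0 CPM after T4, uncalled at 0.22 (adjusted p = 0.105, SE 0.07). TGFBI was at 15.9 and 16.2 CPM after T3 and 14.5 and 13.2 CPM after T4, with log2 fold changes of -0.0013 (adjusted p = 0.998, 95% interval -0.20 to 0.19) and -0.21 (adjusted p = 0.211, 95% interval -0.41 to -0.01). SMAD7 was at 57.3 and 55.9 CPM in DMSO, 52.5 and 54.8 CPM after T3 and 52.3 and 54.6 CPM after T4, uncalled at -0.08 and -0.08.

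The day 7 calls rested on few libraries. With any 1 of the 4 libraries of the T3 comparison left out, between 1 and 3 of the members were called in place of 6, and the share of all genes called was 7.07% to 7.90%. SKIL was called each time. TGFB1 (adjusted p = 0.0612 to 0.095), TGFBR1 (0.113 to 0.218) and TGFBR3 (0.0784 to 0.119) were called in none of the 4. TGFB2 was lost without replicate 1 of DMSO (adjusted p = 0.0941) or of T3 (0.0883), and INHBA without replicate 2 of DMSO (0.085) or replicate 1 of T3 (0.0833). The T4 call on TGFB2 was lost without any 1 library (adjusted p = 0.0642 to 0.264) and on log2(FPKM + 0.1) in limma (0.0537). Fitted on the day 7 libraries alone, TGFBR2 was called with T3 (adjusted p = 0.00232), as it was with the DESeq2 test (0.0205). The fit on day 7 alone also called TGFBR1 (0.0498), TGFBR2 (0.0297), TGFBR3 (0.024) and SKIL (0.0237) with T4. Calls over all genes varied too. Over the settings other than a left-out library, 4.25% to 20.1% of all genes were called with T4 and 10.8% to 31% with T3. The T3 call on TGFBR1 was lost with no filter on low counts (0.0513) and that on INHBA on log2(FPKM + 1) in limma (0.199). Endothelial markers summed to 83.9 to 85.5 CPM in day 7 DMSO, 46.0 to 48.3 CPM after T3 and 48.2 to 51.1 CPM after T4, and all 6 fell with either hormone. Pluripotency markers summed to 1592 to 1613, 2848 to 2878 and 2379 to 2406 CPM in the same order, and 5 of 6 rose with either hormone. Mesenchymal and stellate markers summed to 314 to 321, 344 to 362 and 288 to 297 CPM, with none of 8 called and DCN at 0 in both T4 libraries. Hepatocyte markers summed to 5151 to 5181 CPM in DMSO, 3799 to 3917 CPM after T3 and 4033 to 4107 CPM after T4, and 6 of 8 fell with T3 and 4 of 8 with T4. Cell cycle markers summed to 720.0 to 726, 876 to 879 and 846 to 852 CPM in the same order, and 5 of 6 rose with T3 and 3 of 6 with T4. The part of these shifts in the members' day 7 values was not tested.

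The effect of a hormone differed between the days for 7 members with T3 and for 4 with T4. The test was the difference of the 2 effects, day 19 minus day 7, in which 17.1% of all genes were higher and 20.9% lower for T3, and 12.4% higher and 15.3% lower for T4. With T3 the receptor genes TGFBR2, TGFBR1 and TGFBR3 and the ligand gene TGFB2 were higher, by log2 differences of 1.92 (adjusted p = 5.26e-06, SE 0.21), 0.89 (adjusted p = 8.97e-06, SE 0.10), 0.71 (adjusted p = 0.00156, SE 0.15) and 1.52 (adjusted p = 1.67e-05, SE 0.19). For these 4 genes the T3 libraries lay below DMSO at day 7 and above it at day 19. TGFBI, TGFB3 and SKIL were lower, by -2.31 (adjusted p = 2.48e-09, SE 0.11), -2.27 (adjusted p = 0.000657, SE 0.42) and -0.33 (adjusted p = 0.0212, SE 0.10), and SKIL was lost without replicate 2 of day 7 DMSO (adjusted p = 0.0763), replicate 2 of day 7 T3 (0.126) or replicate 1 of day 19 DMSO (0.0731), and with the DESeq2 test (0.0867). With T4 the differences were 1.29 for TGFBR2, 1.15 for TGFB2, 0.68 for TGFBR1 and -0.87 for TGFBI, with adjusted p of 0.000323, 0.000347, 0.000204 and 5.20e-05. TGFB3 missed the threshold with T4 at -1.12 (adjusted p = 0.0528, SE 0.40) and was called without replicate 1 of day 7 T4 (adjusted p = 0.0399) and by limma on log2(FPKM + 0.1) (0.0476) and log2(FPKM + 1) (0.0111). For TGFBR3 the T4 difference was 0.24 (adjusted p = 0.262, SE 0.15), called without replicate 1 of day 19 DMSO (adjusted p = 0.0284). For INHBA neither difference was called, at 0.39 (adjusted p = 0.488, 95% interval -0.33 to 1.103) for T3 and 0.17 (adjusted p = 0.787, 95% interval -0.48 to 0.82) for T4, and for TGFB1 and SMAD7 the T3 differences were -0.17 (adjusted p = 0.15, SE 0.09) and 0.20 (adjusted p = 0.0834, SE 0.09). SMAD7 passed without replicate 2 of day 19 T3 (adjusted p = 0.0352), with DESeq2 size factors (0.0371) and by limma on log2(FPKM + 0.1), at 0.35 (0.0102) or 0.23 relative to the median gene. On log2(FPKM + 1) the INHBA differences were -0.63 and -0.47, both called.

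T4 and T3 were given at the same dose, so their effects could be compared at each day, 1 pair of compounds over 10 genes. At day 19, 2 members were higher with T4, TGFBI and TGFB3, and 2 were lower, TGFBR2 and SMAD7, where 7.42% of all genes were higher and 8.31% lower. TGFBI was 2.33-fold higher with T4, a log2 difference of 1.22 (adjusted p = 1.48e-07, 95% interval 1.09 to 1.36), and TGFB3 2.12-fold higher, 1.09 (adjusted p = 0.0208, 95% interval 0.46 to 1.71). Both T4 libraries lay between T3 and DMSO for these genes. TGFBR2 was 1.40-fold lower with T4, -0.48 (adjusted p = 0.00657, 95% interval -0.71 to -0.25), again between T3 and DMSO, and SMAD7 was lower at -0.21 (adjusted p = 0.0301, 95% interval -0.34 to -0.08), with T4 below DMSO. Of these 4 calls that on TGFBI held without any 1 library. The others were lost without replicate 1 of T3, with adjusted p of 0.189 for TGFB3, 0.0734 for TGFBR2 and 0.221 for SMAD7. Without replicate 1 of T4 they were 0.126, 0.0836 and 0.16 in the same order, and SMAD7 was also lost without replicate 2 of T4 (0.0564). With the day 19 libraries alone the adjusted p was 0.0547 for TGFB3 and 0.114 for SMAD7, with the DESeq2 test 0.0941 for TGFB3, and on log2(FPKM + 0.1) in limma 0.071 for TGFBR2 and 0.251 for SMAD7.

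The other 6 members were not called between T4 and T3 at day 19. TGFB2 at -0.27 (adjusted p = 0.0509, 95% interval -0.46 to -0.08) and TGFBR3 at -0.29 (adjusted p = 0.0519, 95% interval -0.50 to -0.09) lay at the threshold, and without replicate 2 of T3 their adjusted p were 0.0276 and 0.0273. With the replicate number as a block TGFB2 also passed (adjusted p = 0.0456). The intervals for TGFBR1, -0.25 to 0.05, TGFB1, -0.19 to 0.05, and SKIL, -0.14 to 0.16 bound the log2 difference that these libraries allow. INHBA was at 0.19 (adjusted p = 0.19, 95% interval -0.01 to 0.38). At day 7 no member was called between T4 and T3 by edgeR, where 0.0387% of all genes were higher and 0.326% lower. DESeq2 and limma on FPKM also called 0 members, and edgeR on the day 7 libraries alone called 1, TGFB1 (adjusted p = 0.0334). In the main fit, uncalled values whose interval lay below 0 were TGFB1 at -0.24 (adjusted p = 0.233, 95% interval -0.38 to -0.10), SKIL at -0.23 (adjusted p = 0.398, 95% interval -0.39 to -0.07) and TGFBI at -0.21 (adjusted p = 0.681, 95% interval -0.41 to -0.01). The share of all genes with such intervals was not counted, so these values cannot be read as an excess among the members. For INHBA the interval at day 7 ran from -0.40 to 1.22, the widest of the members at that day.

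The ratio of the receptor genes, per transcript length, shifted with day and hormone. TGFBR1 over TGFBR2 was 5.62 and 5.54 in day 7 DMSO, 7.13 and 6.50 after T3 and 7.11 and 6.32 after T4. At day 19 it was 1.52 and 1.68 in DMSO, 0.853 and 1.06 after T3 and 1.299 and 1.18 after T4. Hormone libraries thus lay above DMSO at day 7 and below it at day 19, and type II receptor transcripts were about level with type I transcripts after T3 at day 19. The ligand mix differed between groups too. TGFB1 made up 87.2% to 95.3% of the summed FPKM of the 3 TGF-beta ligand genes in every library. TGFB2 supplied 8.21 and 6.94% in day 19 DMSO and 12.4 and 11.3% after T3, with 10.4 and 10.4% after T4. At day 7 its share lay the other way, at 5.95 and 5.06% in DMSO, 2.65 and 3.04% after T3 and 4.06 and 3.11% after T4. In day 19 DMSO and after T3, TGFB3 supplied 2.36 and 2.27% and 0.383 and 0.685%. These ratios are descriptions, with no test of their own.

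**Figure D3:**
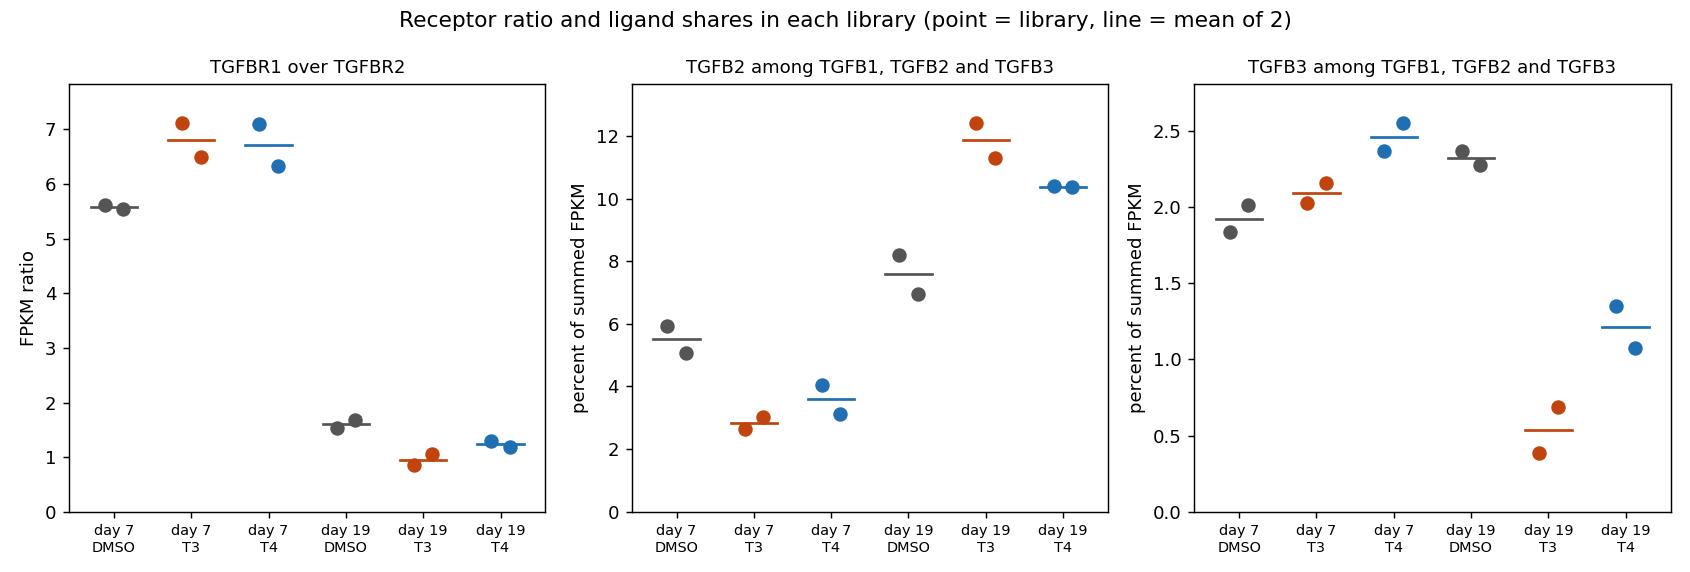
FPKM ratio of TGFBR1 to TGFBR2, and the shares of TGFB2 and TGFB3 in the summed FPKM of TGFB1, TGFB2 and TGFB3, by group, with a point for each library and a line for the mean of 2. The receptor ratio runs from 5.54 to 7.13 at day 7 and from 0.853 to 1.68 at day 19.

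Another 67 genes of the pathway, in 6 lists, were all tested. From day 7 to day 19 in DMSO 50 rose and 8 fell. At day 19 T3 raised 24 and lowered 28 of them, and T4 raised 25 and lowered 21. Over all tested genes the shares higher and lower were 37.6% and 34.9% between the days, 25.1% and 27.3% with T3 at day 19, and 21.0% and 21.9% with T4. At day 7 T3 raised 7 and lowered 7, T4 raised 6 and lowered 3, where 9.43% and 6.54% of all genes did so with T3 and 3.90% and 2.52% with T4. Of the 67, only CDKN1A was called between the hormones at day 7, lower with T4 at -0.46 (adjusted p = 0.0279, SE 0.08). Between T4 and T3 at day 19, 11 were higher and 13 lower (7.42% and 8.31% of all genes), and the T3 effect differed between the days for 23 in the higher and 19 in the lower direction (17 and 13 for T4), where all genes gave 17.1% and 20.9% for T3 and 12.4% and 15.3% for T4.

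Genes for latency and activation of the ligands divided. Of 12, 9 rose and none fell from day 7 to day 19 in DMSO, where 37.6% of all genes rose and 34.9% fell. They were led by the integrin subunit gene ITGB6 at 9.48 (adjusted p = 7.91e-16, SE 0.14) and the matrix gene THBS1, a ligand activator, at 2.68 (adjusted p = 5.51e-13, SE 0.08). At day 19 T3 raised 3 and lowered 6, where 25.1% of all genes rose and 27.3% fell, with a median log2 fold change of -0.42 over the list. The integrin genes whose products release latent ligand fell with T3, ITGB6 at -0.98 (adjusted p = 1.91e-08, SE 0.07) and ITGB8 at -1.07 (adjusted p = 1.20e-05, SE 0.14). FURIN, the protease that cleaves the ligand precursors, rose with T3, at 1.13 (adjusted p = 3.02e-08, SE 0.08), and with T4, at 0.69 (adjusted p = 9.01e-06, SE 0.08). At day 7 T3 raised 1 of the 12 and lowered 3, where 9.43% of all genes rose and 6.54% fell. LTBP4, a latent-ligand binder, rose at 0.51 (adjusted p = 0.000163, SE 0.07). LRRC32, which holds latent ligand at the cell surface, fell at -0.54 (adjusted p = 0.000252, SE 0.08), ITGB8 at -0.88 (adjusted p = 0.000886, SE 0.14) and FBN1 at -0.58 (adjusted p = 0.0193, SE 0.15).

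Among 7 other receptor genes T3 at day 19 raised 1, ENG, and lowered 4, beside 25.1% and 27.3% of all genes. ENG encodes endoglin, a coreceptor best known from vessel walls, and rose by 7.00-fold with T3, 2.81 (adjusted p = 3.25e-13, SE 0.06), and by 3.63-fold with T4, 1.86 (adjusted p = 3.65e-11, SE 0.06). BAMBI, a decoy receptor, fell with T3, at -1.15 (adjusted p = 3.03e-09, SE 0.07), and the activin type I receptor gene ACVR1B at -0.65 (adjusted p = 6.18e-07, SE 0.06). T4 raised 1 and lowered 3 of the 7, beside 21.0% and 21.9% of all genes. Of 6 other activin and inhibin genes all rose from day 7 to day 19 in DMSO, where 37.6% of all genes rose and 34.9% fell. Among them were INHA at 3.20 (adjusted p = 2.69e-09, SE 0.21) and the activin binder FSTL3 at 2.89 (adjusted p = 1.42e-13, SE 0.07). For the day 19 counts of these 6 the shares of all genes are those given for the receptor genes. At day 19 T3 lowered 2 of the 6, the liver-expressed subunit genes INHBC and INHBE, at -3.26 (adjusted p = 1.79e-06, SE 0.35) and -1.96 (adjusted p = 1.81e-05, SE 0.26), and T4 lowered the same 2 and raised FST at 0.31 (adjusted p = 0.00656, SE 0.08).

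The list of SMAD transducers and partners had a median log2 fold change of 0.0039 with T3 at day 19. Of its 7 genes T3 raised 2 and lowered 2 at day 19, and T4 raised 1, the coactivator gene EP300 (0.57 with T3 and 0.37 with T4). FOXH1, the activin-responsive SMAD partner of early endoderm, fell from day 7 to day 19 in DMSO, at -2.26 (adjusted p = 7.23e-11, SE 0.11) and was the leading change of its list with T3 at day 7, at 1.23 (adjusted p = 8.61e-08, SE 0.07). Of 11 other inhibitors and feedback genes T3 raised 4 and lowered 6 at day 19, and T4 did the same in number. For both lists the shares of all genes were 25.1% higher and 27.3% lower with T3, and 21.0% and 21.9% with T4. The corepressor genes TGIF1 and TGIF2 went in opposite directions with T3, 0.85 (adjusted p = 7.54e-09, SE 0.05) and -0.94 (adjusted p = 1.50e-08, SE 0.06). SMAD6, the inhibitor next to SMAD7, fell, at -0.64 (adjusted p = 3.85e-06, SE 0.07), and LDLRAD4, an inhibitor induced by TGF-beta, fell, at -2.12 (adjusted p = 4.26e-06, SE 0.25).

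Other target genes of the pathway rose together with TGFBI from day 7 to day 19 in DMSO, 24 of 25 of them where 37.6% of all genes rose, but divided under hormone. At day 19 T3 raised 14 and lowered 8, with a median log2 fold change of 0.41 against -0.03 over all genes, and T4 raised 15 and lowered 5. All genes gave 25.1% higher and 27.3% lower with T3, and 21.0% and 21.9% with T4. The collagen genes COL1A1 and COL1A2 fell with T3, at -2.01 (adjusted p = 2.84e-11, SE 0.08) and -1.20 (adjusted p = 2.63e-10, SE 0.06). The cell cycle inhibitor gene CDKN1A and the transcription factor gene BHLHE40 rose, at 1.23 (adjusted p = 4.12e-10, SE 0.06) and 1.32 (adjusted p = 6.91e-10, SE 0.07). COL1A1, COL1A2, COL3A1, ACTA2 and POSTN in this list are also among the mesenchymal markers, whose sum was lower with hormone as given above. ACTA2 went against that sum, with a mean of 110 CPM in day 19 DMSO, 144 CPM after T3 and 143 CPM after T4. At day 7 T3 raised 2 of the 25 and lowered 1, where 9.43% of all genes rose and 6.54% fell. CDKN1A rose, at 0.94 (adjusted p = 7.08e-06, SE 0.09), and so did CCN2, a matricellular gene, at 0.78 (adjusted p = 0.000118, SE 0.10). SNAI2, a repressor of epithelial genes, fell, at -0.92 (adjusted p = 0.0013, SE 0.16).

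**Figure D4:**
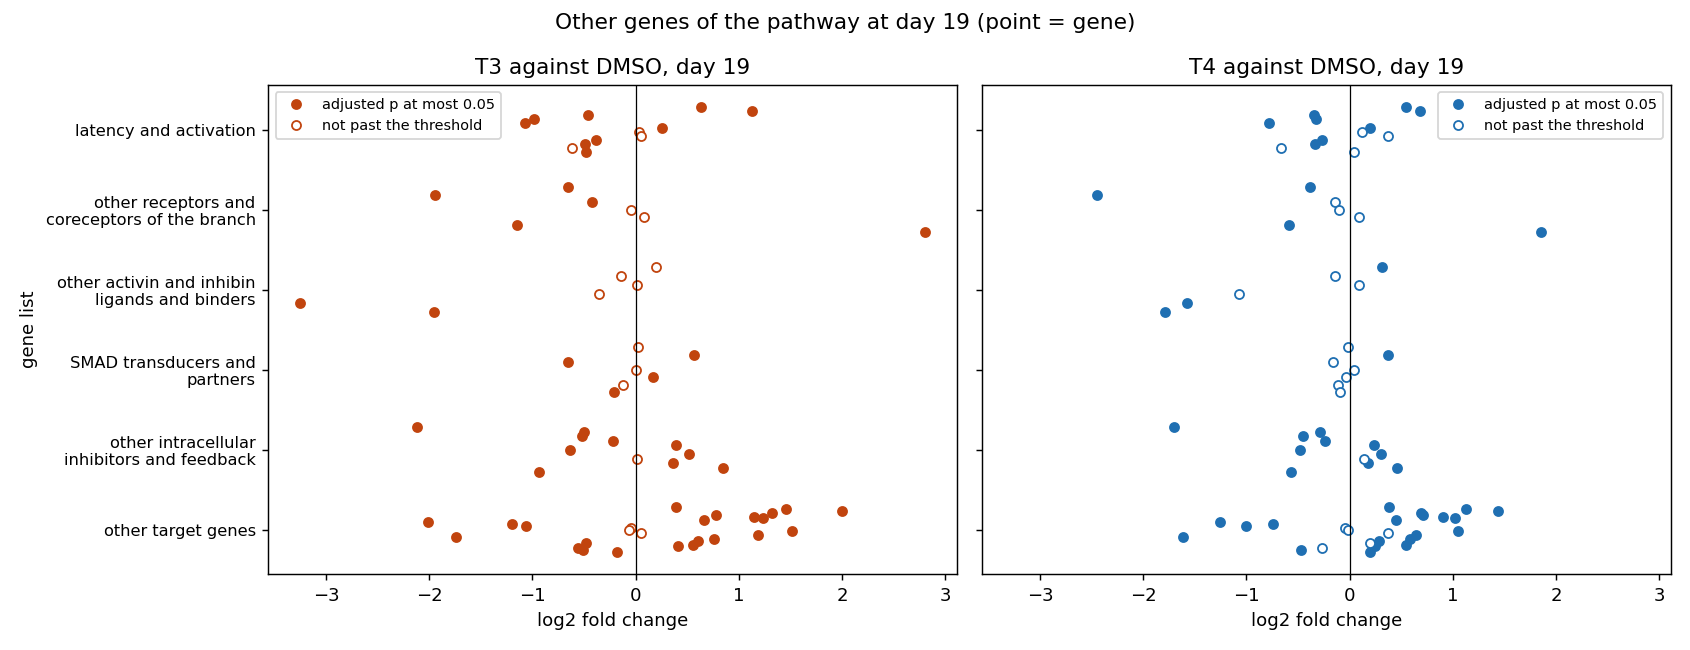
Log2 fold change of the other pathway genes at day 19, T3 against DMSO on the left and T4 against DMSO on the right, by list, with a point for each gene that is filled where the adjusted p is at most 0.05. Called genes lie on both sides of 0 in most lists, with ENG farthest to the right and INHBC or ACVR1C farthest to the left.

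The estimated split of a gene's counts over its transcripts often differed widely between the 2 libraries of a group, and it was not tested between groups. TGFB1, TGFBI and INHBA each had 1 listed transcript. TGFBR2 had 2, and the longer held 20.4% to 30.0% of its counts in day 19 DMSO, 29.8% to 46.8% after T3 and 31.0% to 33.3% after T4. The T3 range overlapped both others. At day 7 the longer transcript held 0% to 27.8% in DMSO, 28.9% to 49.8% after T3 and 79.8% to 100% after T4. These day 7 ranges did not overlap but rested on 125 to 193 TGFBR2 counts a library. Of the 4 SKIL transcripts, that of 7199 bases, chosen after its values were seen, held 6.23% to 7.15% of the SKIL counts in day 19 DMSO, 38.3% to 43.8% after T3 and 2.74% to 4.96% after T4, also without overlap. The SKIL transcript of 7202 bases, close to it in length, held 33.3% to 86.1%, 0.65% to 44.8% and 18.8% to 64.2% in the same order, ranges that overlapped. For TGFB3 the split ran from 0% to 100% between libraries of 1 group, on 14 to 76 counts a library. In TGFBR3 a transcript that RefSeq lists as non-coding took 65.2% to 100% of the counts in every library, so the TGFBR3 value need not stand for coding transcripts. The same limit held for TGFB2 at day 7. There a transcript listed as non-coding took 0% to 13.5% of the counts in DMSO, 1.3% to 15.7% after T3 and 22.3% to 100% after T4. The gene count totals used above do not depend on these splits.

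Over the 12 libraries the genes most like each member, by Pearson correlation of log2 CPM among 15339 candidate genes, are a description in which the step from day 7 to day 19 dominates and all points share libraries. IGF2 was most like TGFB1 (r = 0.9989), TMEM62 most like TGFB2 (r = 0.9976) and REXO5 most like TGFB3 (r = 0.9725). For the receptors these were FAR2 with TGFBR1 (r = 0.9888), APPBP2 with TGFBR2 (r = 0.9984) and RIC1 with TGFBR3 (r = 0.9953). TEX2 was most like TGFBI (r = 0.9981), followed by STXBP6 (r = 0.998) and JUN (r = 0.9978), while EPSTI1 was most like INHBA (r = 0.9973). SLC45A4 was most like SMAD7 (r = 0.9873) and PER3 most like SKIL (r = 0.9924). Among the members themselves TGFB2 and TGFBR2 were most alike (r = 0.9889), TGFBI and INHBA were at r = 0.9798, and TGFB3 and TGFBR1 were least alike (r = 0.2571).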

How the data were processed

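Total RNA of 12 libraries was sequenced. Per the submitters' processing notes, HISAT, Bowtie2 and RSEM were used with the hg38 build, and versions are not given in the sources used here. The authors deposited, per transcript, expected counts (estimated, not normalised) and FPKM, listing transcripts at 0.01 FPKM or more. Here expected counts were summed by Entrez gene and rounded (Python 3.11.15, pandas 2.3.3), and deposited FPKM values were summed. Of 23922 genes, 23801 matched a RefSeq symbol. After filterByExpr, 18101 genes entered 1 quasi-likelihood fit of all 12 libraries (edgeR 4.0.16, R 4.3.3, TMM, 6 residual degrees of freedom), two-sided, with Benjamini-Hochberg adjustment over all genes. The script was tested on simulated data. SE is the absolute log2 fold change over the square root of F. The common coefficient of variation was 5.42%. Alternatives used DESeq2 1.42.0, limma 3.58.1 on log2(FPKM + 0.1) and log2(FPKM + 1), no filter, 1 day alone, a replicate block, the 10 most abundant genes left out, and each library left out. Members, lists and markers were chosen with earlier results of these data known. Named genes are the members, up to 4 genes of smallest p per list and comparison, and up to 3 genes most like each member. T4 and T3 comparisons share DMSO libraries. The 2 libraries of a group and their depth limit precision. A marker gene of the blood list is not reported here.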

Additional observations from a re-analysis of the deposited data

Results flagged for a closer look

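For 11 hormone effects on the members, the effect differed between day 7 and day 19 by the test of the difference itself (edgeR, effect at day 19 minus effect at day 7, log2). The same test called 38.0% of all tested genes for T3 and 27.7% for T4, so such differences were common. With T3 the differences were 1.92 for TGFBR2, 1.52 for TGFB2, 0.89 for TGFBR1 and 0.71 for TGFBR3, whose T3 libraries lay below DMSO at day 7, where TGFBR2 was not called, and above it at day 19. The T3 difference was -2.305 for TGFBI, uncalled with T3 at day 7, -2.27 for TGFB3 and -0.33 for SKIL, called with T3 at day 7 and not at day 19. With T4 the differences were 1.29 for TGFBR2, 1.15 for TGFB2, 0.68 for TGFBR1 and -0.87 for TGFBI. Summed mesenchymal markers were 314 to 321 CPM in day 7 DMSO and 6223 to 6486 CPM in day 19 DMSO, and their part in these differences was not tested. Groups of 2 libraries are too small for a check of single outlying libraries.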

How the results depend on the processing

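Of the 10 members, 6 were called with T3 at day 7, and 1 to 3 with any 1 library left out. With T4 at day 7, 1 was called, against 5 with the libraries of day 7 alone, 0 with limma on log2(FPKM + 0.1) or log2(FPKM + 1), and 0 with any 1 library left out. In that comparison 6.42% of all genes were called in the main fit. The share was 4.25% to 20.1% over the settings other than a left-out library. Between T4 and T3, 0 were called at day 7 and 1 with that day alone, TGFB1, and 4 at day 19, with 2 for day 19 alone, 2 with limma on log2(FPKM + 0.1), and 1 to 6 with 1 library left out. The other comparisons kept their counts within 1.5 times. Of 384 values of called members under other settings, 363 kept direction and call, 17 lost the call and 4 reversed, and of 224 with 1 library left out, 189 kept both and 35 lost the call. Of 396 values of uncalled members under other settings, 26 gained a call and 22 reversed, and of 216 with 1 library left out, 6 gained a call and 23 reversed. The differences of replicate 1 from replicate 2 correlated weakly between groups (r = -0.0778 to 0.1246). Whether the numbers pair libraries is not in the labels, and weak correlations cannot decide it. With a replicate block, 177 of 180 member values kept direction and call. TGFB2 between T4 and T3 at day 19 was then at an adjusted p of 0.0456, and with a replicate block within each day SMAD7 in that comparison was at 0.0544 and TGFBR1 with T3 at day 7 at 0.058. The cause was not tested. With 7 to 27 counts a library, INHBA and TGFB3 were limited by depth at day 7.

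Log2 values that changed sign are given with their main value first. For T3 at day 7, these were TGFBI -0.0013 (-0.039 to 0.044 with 1 library left out, 0.0020 with no filter) and ACVR1B 0.037 (-0.0065 to 0.084 with 1 library left out). For T4 at day 7, these were TGFB1 0.031 (-0.035 to 0.10 with 1 library left out) and TGFB3 0.23 (-0.085 to 0.49 with 1 library left out). For T4 against T3 at day 7, these were TGFB2 0.10 (-0.046 to 0.23 with 1 library left out), TGFB3 -0.063 (-0.38 to 0.19 with 1 library left out, 0.013 with FPKM + 0.1, 0.0050 with FPKM + 1), SMAD7 -0.0057 (-0.040 to 0.023 with 1 library left out, 0.0024 with 1 day alone, 0.014 with FPKM + 0.1, 0.013 with FPKM + 1) and INHBA 0.41 (-0.10 to 0.78 with 1 library left out). For T4 at day 19, these were TGFB1 0.036 (-0.022 to 0.10 with 1 library left out), TGFBR3 -0.021 (-0.18 to 0.16 with 1 library left out, 0.11 with FPKM + 0.1, 0.10 with FPKM + 1), SMAD7 -0.088 (0.10 with FPKM + 0.1, 0.092 with FPKM + 1), SMAD4 -0.11 (0.023 with FPKM + 0.1, 0.021 with FPKM + 1), ZFYVE9 -0.093 (0.033 with FPKM + 0.1, 0.029 with FPKM + 1) and FOXH1 -0.16 (-0.36 to 0.0018 with 1 library left out). For T4 against T3 at day 19, these were SKIL 0.014 (-0.018 to 0.039 with 1 library left out, -0.015 with DESeq2 size factors, -0.015 with DESeq2). For day 19 against day 7, these were TGFBR1 0.21 (-0.20 with FPKM + 0.1, -0.18 with FPKM + 1) and SMAD7 0.30 (-0.14 with FPKM + 0.1, -0.13 with FPKM + 1). For the day difference of the T3 effect, these were INHBA 0.39 (-0.16 with FPKM + 0.1, -0.63 with FPKM + 1). For the day difference of the T4 effect, these were TGFB1 0.0049 (-0.059 to 0.071 with 1 library left out), SMAD7 -0.0046 (-0.038 to 0.027 with 1 library left out, 0.014 with DESeq2 size factors, 0.014 with DESeq2, 0.21 with FPKM + 0.1, 0.21 with FPKM + 1), SKIL -0.082 (0.089 with FPKM + 0.1, 0.088 with FPKM + 1) and INHBA 0.17 (-0.20 to 0.67 with 1 library left out, -0.079 with FPKM + 0.1, -0.47 with FPKM + 1). Most of these are uncalled values near 0, and the cause was not tested. TGFBR1 and SMAD7 between the days were called by edgeR.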
